A study of Homo sapiens with 34 samples.

Results

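The 10 protein-coding genes of the human HOXB cluster, HOXB1 to HOXB9 and HOXB13, were followed through 34 bulk RNA-seq libraries of differentiating ESI017 cells, a human embryonic stem cell line. All 10 had a row in the tables, among 37951 gene identifiers, and all 10 were tested. The cluster was chosen by an earlier look at these same data, in which HOXB9 and HOXB6 stood out between cells that had received different treatments on day 1 and the same endoderm medium on day 2. HOXB values from those endoderm libraries are therefore given as a description, with no p-value.

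The study asked how a cell's position in the primitive streak (PS), set by the first day of treatment, shapes what it becomes on the second day. On day 1 cells received 1 of 4 mixtures for 24 h in E6 medium. DE(a), the endoderm progenitor treatment, held 100 ng/ml activin A and 2 µM of the WNT pathway activator CHIR99021. APS, for anterior streak, held activin at 30 ng/ml, bFGF at 20 ng/ml and CHIR99021 at 4 µM. MPS, for mid streak, held the same activin and bFGF with 40 ng/ml BMP4 and 6 µM CHIR99021. PPS, for posterior streak, was MPS without activin.

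Cells from each of the 4 treatments then went into each of 3 media up to 48 h. DE(b), the endoderm medium, held 100 ng/ml activin and 250 nM of the BMP receptor inhibitor LDN-193189. PM, the paraxial mesoderm medium, is listed in the methods with the TGFβ receptor inhibitor A-8301 at 1 µM, bFGF at 20 ng/ml and LDN-193189 at 250 nM. The study's text also describes WNT activation in PM on day 2, and 1 legend adds CHIR99021 to this medium. LM, the lateral mesoderm medium, held 30 ng/ml BMP4, 1 µM A-8301 and 4 µM of the WNT secretion inhibitor IWP2. With an untreated control, labelled 48 h, this gave 17 conditions of 2 replicates each, which the study calls biological replicates. All libraries come from 1 line with no genetic change.

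HOX genes encode homeodomain transcription factors that give cells their position along the head-to-tail axis. In a cluster the genes lie in the order of their action, with group 1 at the 3′ end acting early and near the head and group 13 at the 5′ end acting late and near the tail. During gastrulation WNT, FGF and retinoic acid signals and the CDX homeodomain factors switch them on in the streak, and polycomb complexes keep them silent before that. HOX proteins bind DNA together with cofactors of the PBX and MEIS families.

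On GRCh38 the cluster runs on the minus strand of chromosome 17, from HOXB1 at chr17:48528526-48531011 to HOXB13 at chr17:48724763-48728750. HOXB6 lies at chr17:48595751-48604992 and HOXB9 at chr17:48621156-48626358. Some exons overlap in the annotation. Of the exon bases of HOXB6, 32.9% are shared with HOXB3 or with the antisense gene HOXB-AS3, and HOXB3 shares 11.7% with its neighbours. Values for these genes depend on how the authors' quantification split shared reads, and its use of strand is not stated in the sources used here. HOXB1, HOXB7, HOXB8, HOXB9 and HOXB13 share none.

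The promoter of HOXB1 is shown because no promoter window of another member was available. Its RefSeq window, chr17:48530962-48531261 on the minus strand of GRCh38.p14, runs from 250 bases before the start site to 50 after it. In capitals is the single match to the HOX-PBX motif TGATNNAT, which begins at position -125 from the start site.
HOXB1: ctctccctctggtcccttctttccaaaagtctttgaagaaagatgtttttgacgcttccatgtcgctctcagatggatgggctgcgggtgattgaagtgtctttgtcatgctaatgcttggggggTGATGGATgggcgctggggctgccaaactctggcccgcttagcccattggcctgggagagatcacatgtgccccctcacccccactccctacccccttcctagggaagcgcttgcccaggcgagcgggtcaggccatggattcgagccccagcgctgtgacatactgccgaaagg
Both strands were searched, and 7.4% of 35116 promoter windows of the same length hold this motif. The CDX motif TTTATNG, present in 9.73% of windows, the retinoic acid receptor core AGGTCA, present in 13.8%, and the homeodomain core TAATTA, present in 4.84%, had no match in this window. The table held windows for 1 of the 10 members. HOXB2, HOXB3, HOXB4, HOXB5, HOXB6, HOXB7, HOXB8, HOXB9 and HOXB13 were not in it.

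Library totals ran from 15522780 to 23439799 estimated counts, with a median of 19341118. Levels are given as CPM, counts scaled to the same total in each library. A gene was called changed at a Benjamini-Hochberg adjusted p under 0.05 in edgeR's quasi-likelihood test, fitted on 17895 genes over all 34 libraries. A level of 3 counts or fewer was taken as not detected, which is 0.147 CPM in the control, and a fold against such a condition is given as a lower bound against 3 counts. Such a bound is a ratio of the mean CPM to that limit, with no interval, and takes no account of the spread between replicates. The replicates of a condition differed by a median of 1.28-fold over 129 pairs of detected values. The gap was over 2-fold in 21 of them, of which 14 were in DE(a)-PM or DE(a)-LM.

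Markers were set beside the labels. The endoderm marker SOX17 stood at 113 to 553 CPM in the 8 DE(b) libraries. FOXA2, the other one, stood at 86 and 125 CPM in DE(a)-DE(b) and at 2.17 and 11 CPM in PPS-DE(b). Paraxial markers summed to 196 to 280 CPM in PM, and lateral markers to 431 to 2150 CPM in LM. Amnion markers also stood at 62.8 to 364 CPM in LM, against 1.07 to 12.6 CPM in PM. Neural markers never passed 1.06 CPM in any library. Endothelial and blood markers reached at most 3.21 CPM. In bulk samples, fewer cells of a type and less RNA per cell cannot be told apart.

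**Figure D1:**
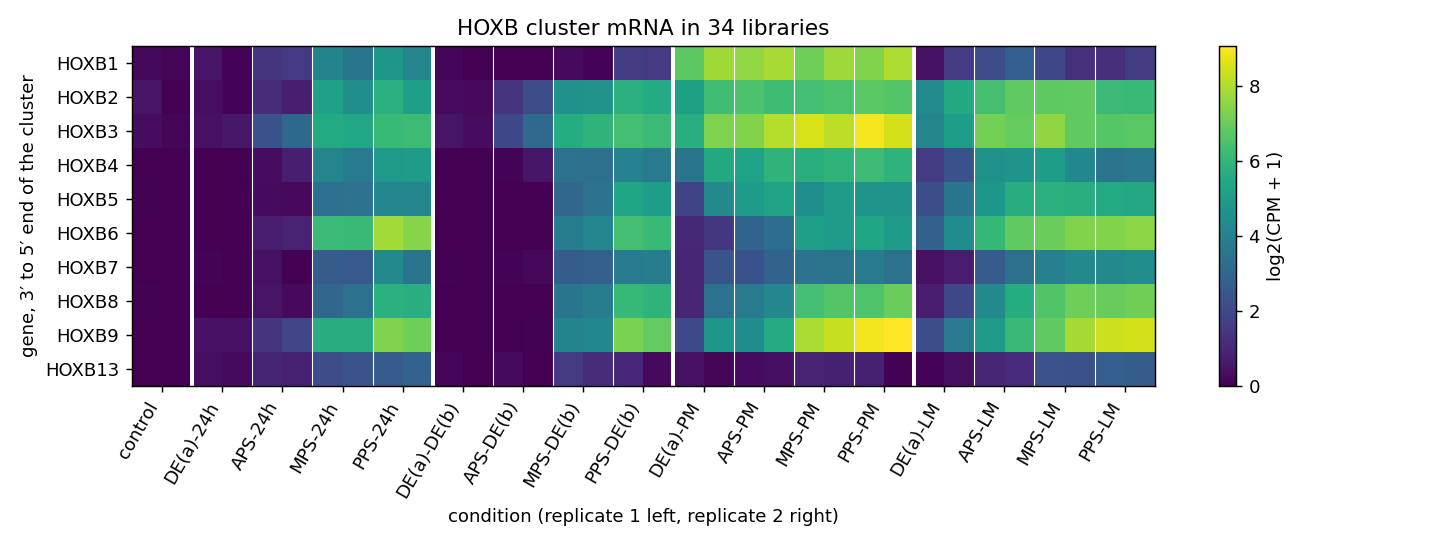
Level of each HOXB gene (rows, 3′ to 5′ end of the cluster) in each library (columns, 2 replicates per condition), as log2(CPM + 1). The cluster is at or near 0 in the control and DE(a)-24h and in cells moved to DE(b) from DE(a) or APS, and HOXB1 is bright only in the 8 PM libraries.

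On day 1 the summed level of the cluster rose from near the detection limit along the series of treatments. The 10 genes together summed to 0.535 ± 0.456 CPM (SD, n = 2) in the control and 1.37 ± 0.414 CPM in DE(a)-24h. The sum was 13.1 ± 2.82 CPM in APS-24h, 245.1 ± 18.7 CPM in MPS-24h and 598.2 ± 81.7 CPM in PPS-24h. The libraries of neighbouring steps did not overlap. In the control 8 of 10 genes stood at or under 3 counts in both libraries, and 5 of them were at 0.

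Against the control all 10 genes rose in MPS-24h, where 16.5% of all genes tested were called higher. All 10 also rose in PPS-24h, beside 16.4% of all genes. HOXB6, a trunk-level gene, reached at least 477-fold the control's detection limit in MPS-24h and at least 1330-fold in PPS-24h. HOXB9, the most 5′ of the contiguous genes, reached at least 332-fold and at least 994-fold. HOXB1, which patterns the hindbrain in embryos, stood at 0.136 and 0.106 CPM in the control, at 15.9 and 10.5 CPM in MPS-24h and at 26.5 and 16.7 CPM in PPS-24h. HOXB13, which is set apart from the rest at the 5′ end and acts in the tail bud, reached at least 25.6-fold and at least 38.6-fold. The fitted fold changes of these genes are not bounds, and those of HOXB2, HOXB3, HOXB5 and HOXB8 moved by over 1.5 times when a control library was left out. HOXB2 in MPS-24h, for example, went from log2 7.10 to 12.18 without control replicate 1 and to 6.22 without control replicate 2.

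APS-24h held only traces. HOXB1, HOXB3, HOXB4, HOXB6, HOXB9 and HOXB13 were called higher than in the control, 6 of 10 beside 13.6% of all genes. HOXB3, which is expressed up to a hindbrain boundary in embryos, was the most abundant in CPM, at 3.83 and 7.19 CPM. None of the 10 had a mean of 10 CPM there, against 6 genes in MPS-24h and 9 in PPS-24h. The call on HOXB4 was lost without either control library or without APS-24h replicate 2, with adjusted p from 0.103 to 0.176. That on HOXB9 was lost without the same 3 libraries, with adjusted p from 0.0563 to 0.0833, and that on HOXB6 without control replicate 1, at 0.0529. HOXB2 gained a call without control replicate 1, at 0.0242, and HOXB7 without APS-24h replicate 2, at 0.0177.

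In DE(a)-24h 1 gene was called, HOXB13, beside 10.3% of all genes called higher. Its 2 libraries stood at 0.259 and 0.161 CPM, close to the detection limit, and the control at 0. Leaving out any 1 of the 4 libraries ended that call, with adjusted p from 0.0717 to 0.195. HOXB4, HOXB5, HOXB6 and HOXB8 were at 0 in both DE(a)-24h libraries.

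APS and MPS, which differ in BMP4 and in the dose of CHIR99021, stood far apart. In edgeR 9 of 10 genes were higher in MPS-24h than in APS-24h, beside 1.89% of all genes. The median log2 difference over the 10 was 4.88, beside -0.01 over all genes. HOXB6 differed most, with a log2 fold change of 6.57 ± 0.54 (SE) and an adjusted p of 1.98e-06. HOXB13 had 2.18 ± 0.82 with an adjusted p of 0.222. HOXB8 lost its call without either APS-24h library, with adjusted p of 0.0503 and 0.0887. HOXB7 was at 0.332 and 0 CPM in APS-24h, so that its log2 fold change of 4.91 became 9.66 without replicate 1 and 3.91 without replicate 2. A fit to only these conditions gave HOXB7 an adjusted p of 0.0785.

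Between DE(a) and APS 1 of 10 genes was called, beside 0.609% of all genes higher. This was HOXB3, with log2 3.76 ± 0.68 and an adjusted p of 0.00504 in edgeR. It lost the call without DE(a)-24h replicate 1, without DE(a)-24h replicate 2 or without APS-24h replicate 2, with adjusted p of 0.162, 0.0648 and 0.101.

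Leaving activin out, the step from MPS to PPS, went with higher HOXB6 and HOXB8, 2 of 10 genes beside 2.79% of all genes. HOXB8, a thoracic-level gene, stood at 7.02 and 9.36 CPM in MPS-24h and at 54.6 and 50.3 CPM in PPS-24h. Its log2 fold change was 2.60 ± 0.62 with an adjusted p of 0.0164 in edgeR. HOXB6 stood at 71.4 and 69.3 CPM in MPS-24h and at 223 and 170 CPM in PPS-24h, with log2 1.41 ± 0.38 and an adjusted p of 0.0358. Neither gene's libraries overlapped between the conditions. HOXB9 stood at 49.2 and 48.6 CPM against 160 and 133 CPM, with log2 1.51 ± 0.63 and an adjusted p of 0.18, or 0.0197 in a fit to only these conditions. The call on HOXB6 was lost without any 1 of the 4 libraries, with adjusted p from 0.0931 to 0.221. That on HOXB8 was lost without either MPS-24h library or without PPS-24h replicate 2, with adjusted p from 0.0692 to 0.198.

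**Figure D2:**
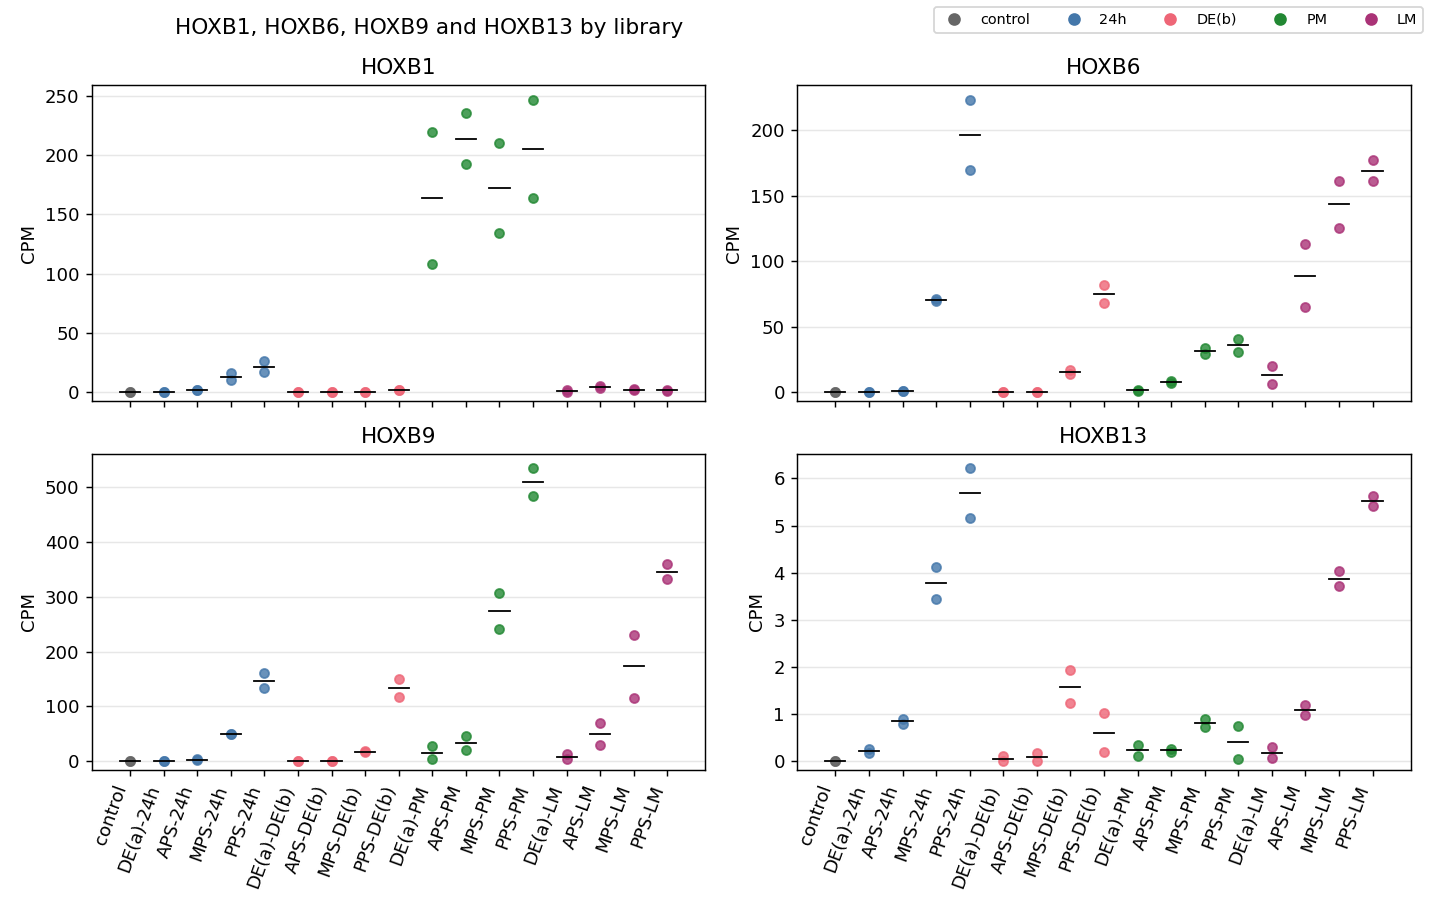
CPM of HOXB1, HOXB6, HOXB9 and HOXB13 in each library (points, coloured by medium) with the mean of the 2 replicates (bars), on linear axes from 0. HOXB1 is high in PM alone, from 108 to 247 CPM, while HOXB6 and HOXB13 are highest in PPS-24h and PPS-LM and HOXB9 in PPS-PM.

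HOXB1 was high in PM after every day 1 treatment and low elsewhere. In PM it stood at 108 and 219 CPM after DE(a), 192 and 235 after APS, 135 and 210 after MPS, and 164 and 247 after PPS. In LM the 8 libraries ran from 0.322 to 5.58 CPM, and in DE(b) from 0 to 2.17 CPM. On day 1 it had reached 15.9 and 10.5 CPM in MPS-24h and 26.5 and 16.7 CPM in PPS-24h. No PM library overlapped any other library, and the 4 PM conditions overlapped each other. LM lay below PM by log2 6.42 as a mean over day 1 treatments, at -6.42 ± 0.28 with an adjusted p of 8.84e-14 in edgeR.

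HOXB1 was also lower in the other media than at 24 h after MPS and PPS. Contrasts over these 2 day 1 treatments alone were added after the data were seen, since several members were at 0 in DE(a) libraries at 24 h. Over MPS and PPS, HOXB1 changed by log2 3.41 ± 0.33 in PM, and by -3.14 ± 0.37 in LM against 24 h, with adjusted p of 7.95e-08 and 6.26e-07. Its log2 value in DE(b) was -5.06 ± 0.48. In MPS-DE(b) it was at 0.181 and 0.0644 CPM, not above 3 counts.

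Of the genes just inside HOXB1, HOXB2 was at like levels in PM and LM. HOXB2, a hindbrain-level gene, was at 67.9 to 114 CPM in LM after APS, MPS or PPS and at 76 to 105 CPM in PM after the same treatments. Between LM and PM, as a mean over day 1 treatments, it had log2 -0.10 ± 0.20 and an adjusted p of 0.752. HOXB3 and HOXB4 were lower in LM than in PM, by log2 -1.42 ± 0.21 and -1.92 ± 0.25, with adjusted p of 7.14e-06 and 4.2e-06. HOXB3 in PPS stood at 489 and 353 CPM in PM and at 101 and 107 CPM in LM. HOXB4 in PPS stood at 74.2 and 58.8 CPM in PM and at 10.2 and 11.3 CPM in LM.

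HOXB6 ran the other way. It stood at 0.989 and 1.68 CPM in DE(a)-PM, 6.65 and 8.76 in APS-PM, 33.4 and 29.4 in MPS-PM, and 40.7 and 30.8 in PPS-PM. In LM it stood at 5.86 and 20.1 CPM after DE(a), 64.7 and 113 after APS, 126 and 161 after MPS, and 161 and 177 after PPS. After each day 1 treatment the LM libraries lay above the PM libraries. LM exceeded PM by log2 2.89 ± 0.21, with an adjusted p of 2.84e-09 in edgeR.

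HOXB13 was the other gene higher in LM, by log2 2.06 ± 0.46 with an adjusted p of 0.000943. Its levels were low throughout. It stood at 4.03 and 3.71 CPM in MPS-LM and 5.62 and 5.41 in PPS-LM, against 0.885 and 0.725 in MPS-PM and 0.735 and 0.0476 in PPS-PM. The log2 value was 2.78 without PPS-PM replicate 1, and without DE(a)-LM replicate 2 it was 1.69 with an adjusted p of 0.0658. After DE(a), PM and LM libraries overlapped at 0.0637 to 0.329 CPM.

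Between LM and PM as a whole, 2 of 10 genes were thus higher in LM, beside 21% of all genes, and 3 of 10 were lower, beside 21%. HOXB5, HOXB7, HOXB8 and HOXB9, with HOXB2, were not called. Without DE(a)-PM replicate 2, HOXB5 and HOXB8 were also called higher, at log2 0.92 and 0.74 with adjusted p of 0.00117 and 0.0285. The day 1 treatment by medium interaction over PM and LM was called for 0 of 10 genes in edgeR, beside 6.85% of all genes. The unadjusted p was under 0.05 for 3 genes, and DESeq2 called 2.

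Against 24 h, 9 of 10 genes were higher in PM as a mean over the 4 day 1 treatments, beside 23.2% of all genes, and HOXB13 alone was lower, beside 25.1%. In LM 8 of 10 were higher, beside 27.4%, with HOXB1 and HOXB13 uncalled at log2 -0.69 ± 0.36 and 0.01 ± 0.49 and adjusted p of 0.111 and 1. Without DE(a)-LM replicate 2, HOXB1 was called lower at log2 -1.17 with an adjusted p of 0.0125. In DE(b) 3 of 10 passed as lower in edgeR, beside 26.2% of all genes, and 4 passed in DESeq2. The members that passed are not named and nothing is read from these counts, since the DE(b) libraries chose the members. Also, edgeR could not estimate HOXB4, HOXB5, HOXB6 and HOXB8 there. The sizes of these means rest on genes at 0 in DE(a)-24h. In DE(a)-PM HOXB4 reached at least 173-fold the detection limit of DE(a)-24h, and HOXB5 at least 66.1-fold.

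Over MPS and PPS alone, 6 of 10 genes rose in PM, beside 15.7% of all genes, and 2 fell, beside 18%. HOXB1, HOXB2, HOXB3, HOXB4, HOXB8 and HOXB9 rose, with log2 fold changes from 1.33 in HOXB2 to 3.41 in HOXB1. HOXB6 fell, at -1.88 ± 0.28 with an adjusted p of 3.71e-05. HOXB13 fell, at -3.10 ± 0.61 with an adjusted p of 0.000425, and at -4.53 without PPS-PM replicate 1. The direct neighbours of HOXB6, HOXB5 and HOXB7, had log2 1.00 ± 0.39 and 0.24 ± 0.39, with adjusted p of 0.0544 and 0.698.

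In LM 6 of 10 rose over MPS and PPS, beside 19.4% of all genes, and HOXB1 alone fell, beside 21.8%. HOXB8 and HOXB5 had the largest increases, at log2 2.58 ± 0.43 and 1.99 ± 0.40, with adjusted p of 8.16e-05 and 0.000456. HOXB2, HOXB3, HOXB7 and HOXB9 rose by 1.11 to 1.56. HOXB7 lost its call without any 1 of 5 libraries, both MPS-24h libraries, PPS-24h replicate 2, MPS-LM replicate 2 and PPS-LM replicate 2, with adjusted p from 0.0592 to 0.114.

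In DE(b) the values over MPS and PPS are again a description, with no call. Besides HOXB1, at log2 -5.06, the lowest were HOXB13, at -2.24 ± 0.58, and HOXB6, at -1.82 ± 0.28. HOXB13 was at -3.09 without PPS-DE(b) replicate 1. HOXB2, HOXB3, HOXB5, HOXB7 and HOXB8 had values between -0.04 and 0.49. HOXB4 and HOXB9 had -0.86 ± 0.35 and -0.85 ± 0.45.

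**Figure D3:**
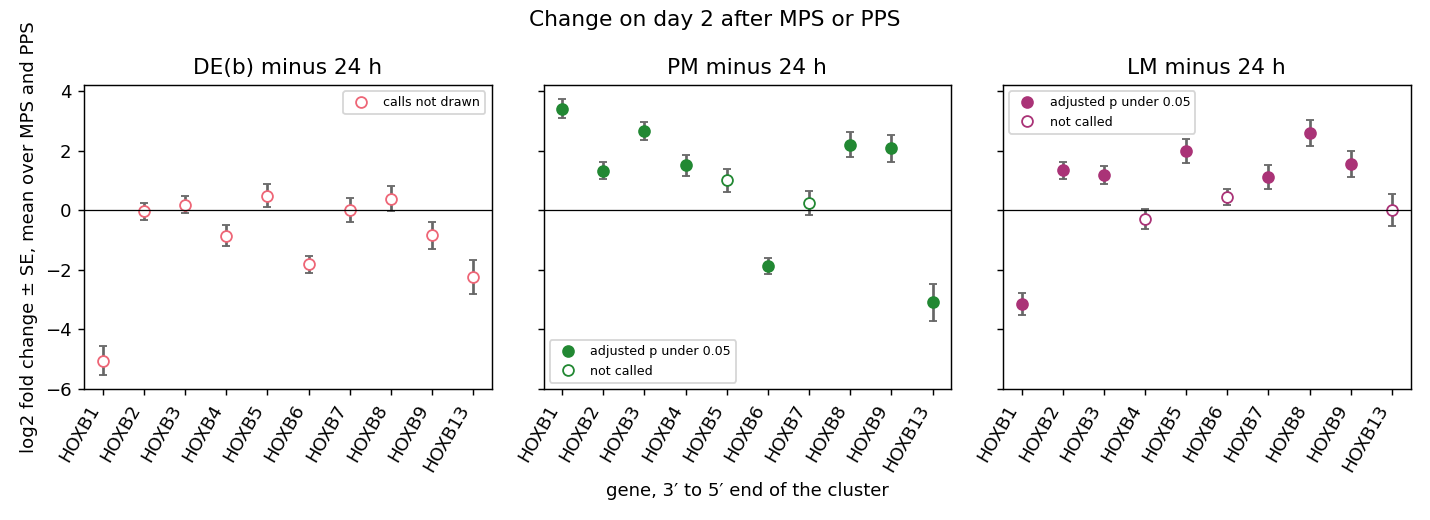
Log2 fold change of each HOXB gene (3′ to 5′ order) from 24 h to 48 h in DE(b), PM and LM, as the mean over MPS and PPS, with the SE as bars and filled points for an adjusted p under 0.05 in PM and LM (DE(b) is drawn without calls). HOXB1 is at 3.41 in PM and -5.06 in DE(b), and HOXB6 is below 0 in both of these media.

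Within the endoderm medium, where the members were chosen, the day 1 treatment went with large differences. The 10 genes summed to 0.647 ± 0.339 CPM in DE(a)-DE(b) and 8.21 ± 4.88 CPM in APS-DE(b). After MPS the sum was 146 ± 14.3 CPM and after PPS it was 463 ± 57.6 CPM. HOXB9 stood at 0 in both DE(a)-DE(b) libraries and at 0 and 0.0493 CPM in APS-DE(b). It reached 16.2 and 17.6 CPM after MPS and 149 and 117 CPM after PPS. HOXB6 was at 0 in all 4 libraries from DE(a) and APS, at 13.5 and 16.7 CPM after MPS, and at 81.8 and 68.4 CPM after PPS. These 4 conditions did not overlap in their summed level.

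The gap between PPS-DE(b) and MPS-DE(b) was uneven along the cluster. The ratio of means was 2.1 in HOXB2, 1.44 in HOXB3 and 1.47 in HOXB4. It was 4.27 in HOXB5, 4.97 in HOXB6, 2.35 in HOXB7, 5.26 in HOXB8 and 7.87 in HOXB9. HOXB13 went the other way, with a ratio of 0.378. HOXB1, at the 3′ end, stood at 2.17 and 1.82 CPM in PPS-DE(b) and at 0.181 and 0.0644 CPM, at or under 3 counts, in MPS-DE(b). HOXB9 was the member the choice turned on, and its neighbour HOXB8 stood at 62.4 CPM in PPS-DE(b) and at 0 in DE(a)-DE(b), at least 387-fold above the detection limit. In APS-DE(b) HOXB2, at 1.55 and 3.36 CPM, and HOXB3, at 2.94 and 7.66 CPM, were the 2 members whose mean reached 1 CPM.

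The endoderm markers varied with the day 1 treatment. SOX17 stood at 330 and 440 CPM after DE(a), 401 and 518 after APS, 391 and 553 after MPS, and 113 and 224 after PPS. FOXA2 stood at 86 and 125 CPM after DE(a), 52.9 and 79.1 after APS, 17.1 and 37.8 after MPS, and 2.17 and 11 after PPS. PPS-DE(b) also kept the streak gene TBXT at 108 and 85.6 CPM, the paraxial gene TBX6 at 49.3 and 52.8 and the lateral gene HAND1 at 100 and 69.3. In MPS-DE(b) these stood at 11.1 and 13.7, at 9.81 and 8.66 and at 27.8 and 19.9 CPM. The part of such cells in the HOXB levels was not tested.

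In PM the day 1 treatment went with differences in a few genes. PPS-PM exceeded APS-PM in HOXB6, HOXB8 and HOXB9, 3 of 10 genes beside 2.63% of all genes. HOXB9 stood at 20.3 and 45.3 CPM in APS-PM and at 484 and 535 in PPS-PM, with log2 3.97 ± 0.69 and an adjusted p of 0.00126. HOXB8 stood at 12 and 17.3 CPM in APS-PM and at 94 and 126 in PPS-PM, with log2 2.93 ± 0.62 and an adjusted p of 0.00709. HOXB6 had log2 2.23 ± 0.41 and an adjusted p of 0.00255. All 3 genes had PPS-PM libraries above both APS-PM libraries. Without APS-PM replicate 1, HOXB6 and HOXB8 lost the call, at adjusted p of 0.0584 and 0.116, and without replicate 2 HOXB9 moved to log2 4.67.

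HOXB1, HOXB2, HOXB4 and HOXB5 had values from log2 -0.42 to 0.49 in the same comparison, none called. HOXB3, HOXB7 and HOXB13 had 0.99 ± 0.41, 1.11 ± 0.57 and 0.81 ± 0.93, with adjusted p of 0.195, 0.319 and 0.712. MPS-PM exceeded APS-PM in HOXB6, at log2 2.03 ± 0.41 with an adjusted p of 0.0325, and in HOXB9, at 3.07 ± 0.67 with 0.0425, 2 of 10 genes beside 0.196% of all genes. HOXB9 in MPS-PM stood at 242 and 308 CPM. Both calls were lost without any 1 of the 4 libraries, with adjusted p from 0.134 to 0.392 in HOXB6 and from 0.111 to 0.547 in HOXB9. The log2 value of HOXB9 was 3.77 without APS-PM replicate 2. Both calls were also lost in a fit to only the conditions compared, at 0.102 and 0.123. HOXB8, at 80.7 and 99.9 CPM in MPS-PM, had log2 2.63 ± 0.61 and was not called in edgeR, at an adjusted p of 0.0744. It was called with a replicate block, at 0.0141, and with no filter on low counts, but not in DESeq2. The remaining members ran from log2 -0.31 to 1.81, none called.

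Between DE(a)-PM and APS-PM edgeR called 0 of the 10 genes, beside 0.0559% of all genes called. The unadjusted p was under 0.05 for 4 of them, and DESeq2 called 1, HOXB6. The replicates of DE(a)-PM lay far apart. HOXB9 stood at 3.08 and 26.7 CPM, HOXB8 at 0.987 and 9.59, and HOXB5 at 2.66 and 18.3. Replicate 1 was the lower in each of these. That library also held SOX17 at 72.7 CPM against 3.75 in replicate 2, and EOMES, a streak and endoderm gene, at 24.4 against 2.64. The part of such cells was not tested. With replicate 1 alone in DE(a)-PM, HOXB3, HOXB4, HOXB5, HOXB8 and HOXB9 were called lower than in APS-PM, with adjusted p from 0.00273 to 0.0467.

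In LM the low condition was DE(a). DE(a)-LM lay below MPS-LM in 9 of 10 genes, beside 5.27% of all genes called lower, with a median of log2 -3.36 over the 10 and 0.00 over all genes. HOXB8 stood at 0.637 and 2.86 CPM in DE(a)-LM and at 97.2 and 134 in MPS-LM, with log2 -6.08 ± 0.75 and an adjusted p of 1.57e-05. HOXB2 stood at 19.9 and 44.5 CPM against 112 and 114, with log2 -1.90 ± 0.42 and an adjusted p of 0.00278. The difference was smallest in HOXB1, at -0.87 ± 0.62, followed by HOXB2, and was over 4 on the log2 scale in HOXB7, HOXB8, HOXB9 and HOXB13.

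Replicate 1 of DE(a)-LM was again the lower library, at a summed 52.8 CPM against 129. Without it the log2 value of HOXB8 was -5.41 and without replicate 2 it was -7.64. HOXB2 and HOXB13 lost their calls without replicate 1, at adjusted p of 0.0773 and 0.0552. Without replicate 2 the values of HOXB5, HOXB6 and HOXB9 were -4.02, -4.77 and -5.76, and without replicate 1 they were -2.39, -2.91 and -3.91. Without replicate 2 those of HOXB2, HOXB3, HOXB4, HOXB7 and HOXB13 were -2.66, -3.34, -3.77, -5.81 and -5.92. HOXB9 was at -3.90 without MPS-LM replicate 2. SOX17 was at 94.8 and 69.6 CPM in DE(a)-LM and at 0 in MPS-LM, and its part was not tested.

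APS-LM and PPS-LM had no member called against MPS-LM in edgeR, beside 3.79% and 5.6% of all genes. The unadjusted p was under 0.05 for 4 genes in APS-LM and 1 in PPS-LM, and DESeq2 called 0 in both. HOXB9 in APS-LM stood at 28.9 and 69.9 CPM against 115 and 231 in MPS-LM, with log2 -1.85 ± 0.64 and an adjusted p of 0.12. In PPS-LM it stood at 332 and 360 CPM, with log2 0.97 ± 0.62 and an adjusted p of 0.528. HOXB8 in APS-LM had log2 -1.81 ± 0.59 and an adjusted p of 0.103, and was called at -2.71 with an adjusted p of 0.0483 without APS-LM replicate 2.

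The step from MPS to PPS was called different between LM and 24 h for 0 of the 10 genes in edgeR, beside 2.4% of all genes, and between LM and PM for 0, beside 1.03%. These tests were added after the data were seen. For LM and 24 h the unadjusted p was under 0.05 for 4 genes and DESeq2 called 1, HOXB4. For LM and PM the numbers were 1 and 0. HOXB4 stood at 28.1 and 30.3 CPM in PPS-24h against 16.5 and 12 in MPS-24h, and at 10.2 and 11.3 in PPS-LM against 33 and 17.7 in MPS-LM. The directions were opposite, with a log2 difference of the steps of -2.20 ± 0.70 and an adjusted p of 0.129.

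Per kilobase of exon, the makeup of HOXB mRNA changed with both days of treatment. These values divide the mean CPM by the union exon length, and are levels that can be set beside each other between genes. HOXB6 led after MPS and PPS at 24 h, with 30.4% of the cluster's sum per kb in MPS-24h and 33.6% in PPS-24h. HOXB1 led in DE(a)-PM and APS-PM, with 49.9% and 39.9%. HOXB9 led in MPS-PM and PPS-PM, with 30.1% and 40.1%, at 106 and 197 CPM per kb.

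In LM the lead passed from HOXB2, with 42% in DE(a)-LM and 24.5% in APS-LM, to HOXB9, with 23.1% in MPS-LM and 39.4% in PPS-LM. As a description of the libraries that chose the members, HOXB2 led in MPS-DE(b), with 20.5%, and HOXB9 in PPS-DE(b), with 29.7%. HOXB7 never held over 9.35%, a value that rests on 1 count in DE(a)-DE(b), and HOXB13 stayed under 2 CPM per kb in every condition. With the longest transcript in place of the union of exons, 15 of 17 conditions kept their leading gene. The 17 include the control, DE(a)-24h and DE(a)-DE(b), where the cluster summed to 0.535, 1.37 and 0.647 CPM. The leading gene there rests on few counts. The exceptions were APS-24h, where HOXB3 replaced HOXB9, and MPS-LM, where HOXB6 replaced HOXB9.

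**Figure D4:**
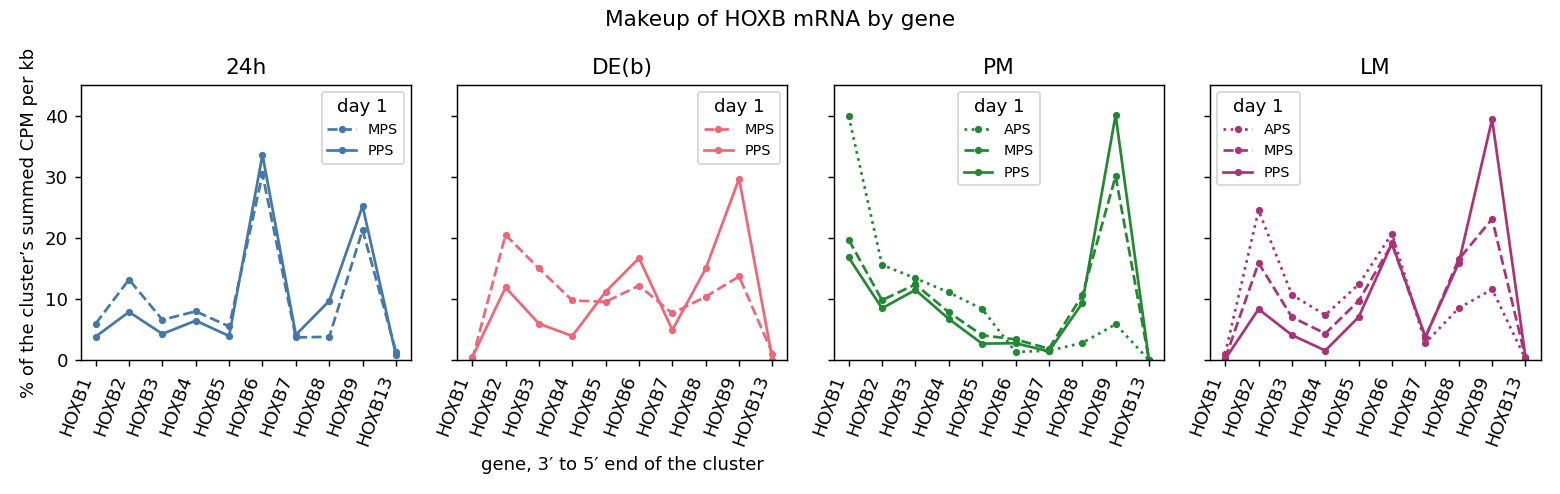
Share of each HOXB gene (3′ to 5′ order) in the cluster's summed CPM per kb of exon, in per cent, for 24 h, DE(b), PM and LM, with a line for each day 1 treatment (APS not drawn at 24 h and in DE(b), where it is near the detection limit). In PM the APS line peaks at HOXB1 with 39.9% and the PPS line at HOXB9 with 40.1%.

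Ranked over the 17 conditions, HOXB9 ran from PPS-PM (509 ± 36.3 CPM) through PPS-LM (346 ± 19.3), MPS-PM (275 ± 46.6) and MPS-LM (173 ± 81.4) to PPS-24h (147 ± 18.7) and PPS-DE(b) (133 ± 22.7). The libraries of the first 4 conditions did not overlap between neighbours. MPS-LM overlapped PPS-24h, and PPS-24h overlapped PPS-DE(b). Over the whole order of HOXB9, 9 of 16 neighbouring pairs did not overlap, the most of any member. HOXB3 had 8, HOXB6 7, HOXB1 5, and HOXB5 and HOXB13 the fewest, 4. The conditions were sorted by these same means, and the share over all genes is not given. Nothing is read from these counts.

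Across the 17 condition means, on log2(CPM + 1), HOXB2 to HOXB9 were alike. HOXB1 and HOXB13, at the ends, were less like most of them. As a description of values that share libraries, Pearson's r among HOXB2 to HOXB9 ran from 0.74, between HOXB4 and HOXB6, to 0.98, between HOXB8 and HOXB9. Pearson's r was 0.90 between HOXB2 and HOXB9, but 0.62 both between the neighbours HOXB1 and HOXB2 and between HOXB9 and HOXB13. It was 0.27 between HOXB1 and HOXB6 and 0.02 between HOXB1 and HOXB13. HOXB1 had its highest value, 0.80, with HOXB4. HOXB13 had its highest, 0.79, with HOXB6, followed by 0.70 with HOXB7. The values of 0.80 and 0.79 lie above the lowest among HOXB2 to HOXB9.

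Of the 14647 genes whose mean reached 1 CPM, and leaving the cluster out, HOXB1 was most like RAB30, which encodes a small GTPase, with r = 0.98. HOXB2, HOXB3 and HOXB5 were most like PRTG, which encodes the cell surface protein protogenin, with r = 0.98, 0.97 and 0.94. PRTG stood at 5.24 ± 0.558 CPM in the control, 453 ± 127 in MPS-24h and 1990 ± 4.82 in PPS-PM. HOXB4 was most like GREB1L, with r = 0.94, HOXB6 like PXDC1, with 0.89, and HOXB7, HOXB8 and HOXB9 like OSBPL8, with 0.92, 0.93 and 0.94. HOXB13 was most like PRAC2, its neighbour on the opposite strand, with r = 0.89.

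The CDX genes, which encode homeodomain factors that act on HOX clusters in the streak, were high in some conditions with HOXB mRNA and low in others. CDX2 stood at 16.5 and 31.8 CPM in APS-24h, 151 and 176 in MPS-24h, and 362 and 410 in PPS-24h. It stayed at 166 to 243 CPM in all PM libraries. In LM it was at 0.722 and 2.15 CPM after APS and at 78.4 and 73.7 after PPS.

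The 3 CDX genes fell in DE(b) against 24 h over MPS and PPS, with CDX2 at log2 -6.19 ± 0.38, CDX1 at -5.41 ± 0.28 and CDX4 at -4.54 ± 0.51, and adjusted p of 1.08e-10, 1.16e-11 and 3.63e-07. In MPS-DE(b) CDX2 was at 1.08 and 0.644 CPM while the HOXB genes summed to 136 and 156 CPM. In APS-LM, where the 3 CDX genes were at 0.103 to 2.15 CPM, the HOXB genes summed to 400 and 555 CPM. CDX4 rose from MPS-24h to PPS-24h, at log2 3.43 ± 0.54 with an adjusted p of 0.000401, and from APS-PM to PPS-PM, at 5.98 ± 0.61 with 3.35e-06.

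**Figure D5:**
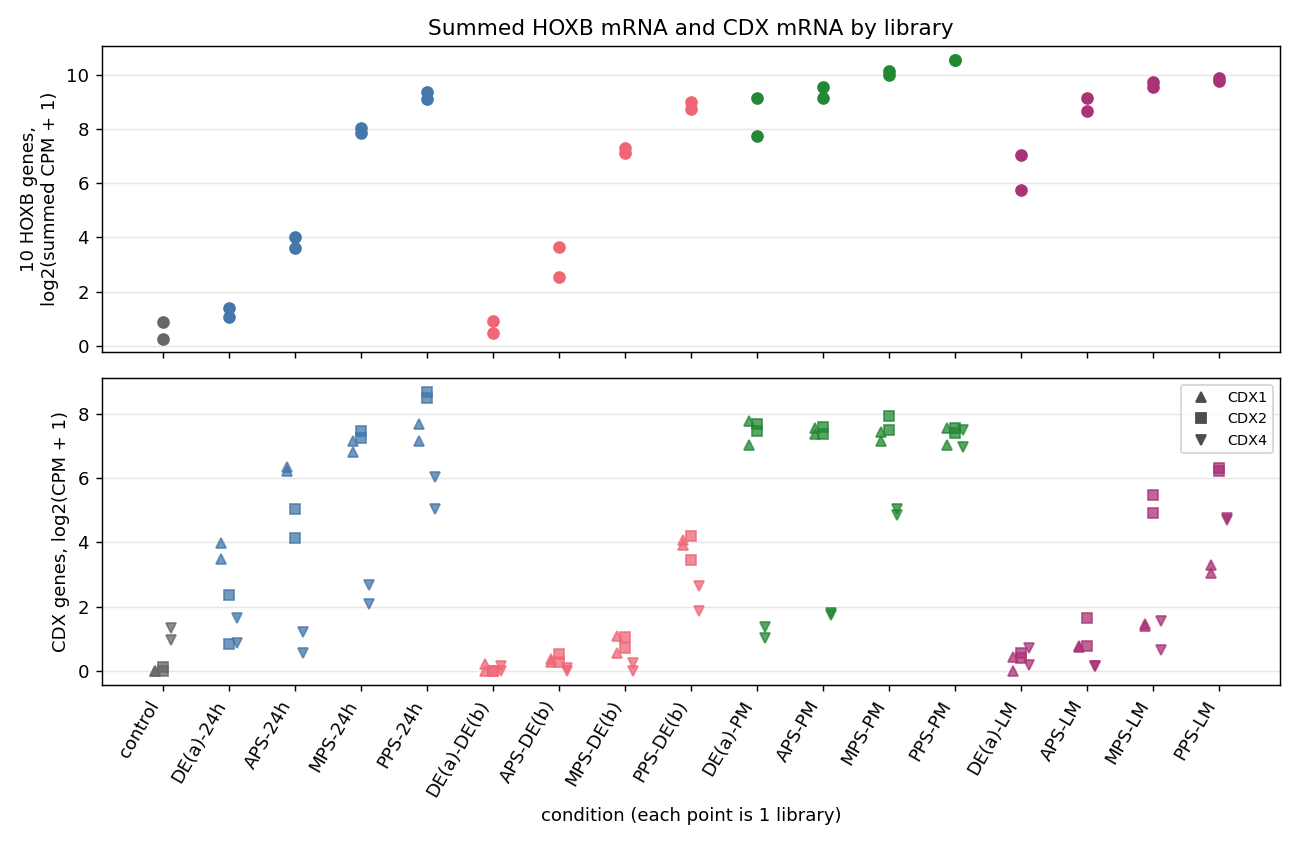
Summed level of the 10 HOXB genes (top) and levels of CDX1, CDX2 and CDX4 (bottom) in each library, as log2(CPM + 1), by condition. In APS-LM the HOXB sum is 400 and 555 CPM while every CDX value is at or below 2.15 CPM.

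The other HOX clusters were set beside HOXB by counts from lists chosen with earlier results of these data known. In APS-LM against MPS-LM 8 of 11 HOXA genes, 3 of 7 HOXC genes and 1 of 9 HOXD genes were lower, beside 3.79% of all genes called in either direction. Of the 10 HOXB genes 0 were called, with 4 at an unadjusted p under 0.05. With no filter on low counts 5 were called, of which HOXB1 was higher in APS-LM and the others lower. With a replicate block 2 were called, both lower. HOXA10, called with an adjusted p of 0.00666, was at 0 in both APS-LM libraries and at 0.749 and 4.18 CPM in MPS-LM. In PPS-LM against MPS-LM 7 HOXA, 2 HOXC and 6 HOXD genes were higher, beside 5.6% of all genes called in either direction, with HOXA10 at log2 4.77 ± 0.79 and an adjusted p of 0.00152. HOXA9 stood at 0.997 and 5.51 CPM in MPS-LM and at 81.9 and 75.3 in PPS-LM. The differences between clusters in these counts were not tested.

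Between day 2 media, 7 of 11 genes of the HOXA list were lower in LM than in PM and 1 was higher, of the HOXC list 2 of 7 lower and 1 higher, and of the HOXD list 4 of 9 lower and 2 higher. Over all genes 21% were called in each direction.

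Near the cluster, 7 of 14 listed neighbours and noncoding genes were in the tables. PRAC1 and PRAC2, which lie beside HOXB13, were higher in LM than in PM, at log2 3.28 ± 0.66 and 2.73 ± 0.37 with adjusted p of 0.000375 and 3.71e-06. SKAP1, the next coding gene in the tables beyond the 3′ end, was lower, at -3.26 ± 0.50 with 1.93e-05. CALCOCO2 was higher, at 0.66 ± 0.12 with 8.97e-05. In all, 3 of the 7 were higher and 2 lower, beside 21% of all genes in each direction.

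Of 9 PBX, MEIS and PKNOX genes, which encode partners of HOX proteins on DNA, 6 were higher in LM than in PM and none lower. Over all genes 21% were called in each direction. MEIS2 was higher, at log2 1.31 ± 0.28 with an adjusted p of 0.000558. MEIS1 rose over MPS and PPS from 24 h, by 6.13 ± 0.45 in LM with an adjusted p of 3.52e-10. Of 18 retinoic acid genes 6 were higher and 7 lower in LM than in PM, beside the same share of all genes. ALDH1A2, which makes retinoic acid, was lower at -5.82 ± 0.27 with an adjusted p of 1.17e-13, and stood at 41.7 to 508 CPM in PM. CYP26A1, which breaks it down, was at 256 to 1090 CPM in DE(b) and rose there over MPS and PPS by log2 8.82 ± 0.56, with an adjusted p of 7.26e-11.

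Of 11 polycomb repressive complex 2 genes 2 were higher and 4 lower in LM than in PM, beside 21% of all genes in each direction. Of 11 trithorax and demethylase genes 3 were higher and 1 lower. EZH2 and KDM6B were picked from these lists after their values were seen. EZH2, the polycomb methyltransferase, had log2 -0.42 ± 0.06 with an adjusted p of 4.11e-06 in that comparison. It ran from 64 to 120 CPM over all libraries and stood at 92.7 and 82.8 CPM in the control. KDM6B, which removes the mark that EZH2 sets, was higher in LM by log2 1.13 ± 0.14 with an adjusted p of 5.63e-07.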

How the data were processed

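Bulk RNA-seq of 34 libraries was used. The authors quantified reads with Salmon 1.10.2 against GRCh38 and summed transcripts to genes in R 4.4.2, and the deposited values are unnormalized estimated counts, with replicate 1 and replicate 2 libraries in separate tables. The counts were rounded for edgeR 4.0.16 (R 4.3.3), with TMM scaling, edgeR's default filter on low counts (17895 of 37951 genes kept) and a quasi-likelihood fit of 17 conditions with 17 residual degrees of freedom. Adjusted p-values are Benjamini-Hochberg over all genes tested. CPM divides by the library total, with no scaling. On simulated data for PPS-PM against APS-PM with 16769 genes, 21% of genes changed by log2 1 and 94% of those changed by log2 2 were called. These percentages cannot be carried over to the members, which vary more between replicates. Their biological coefficient of variation in edgeR ran from 0.276 in HOXB6 to 0.458 in HOXB9, against a common value of 0.247. Alternatives were RLE scaling, no filter, a replicate block, only the conditions compared, DESeq2 1.42.0, and leaving out each library with genes and trended dispersions kept. Groups came from the sample labels, and 0 count columns were left unmatched. Exon lengths and overlaps are from GENCODE v44 on GRCh38, in which 34979 identifiers matched.

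The members and gene lists were chosen with earlier results of these data known. Genes named outside the cluster were the 3 most alike per member, up to 4 called genes of largest change per list and comparison, and defining markers. A few called genes with smaller changes (CALCOCO2, MEIS2, EZH2, KDM6B) and some levels were picked after their values were seen. A test of the MPS to PPS step in LM minus that in DE(b) was fitted, called members and is left out, because the DE(b) conditions chose them. For the same reason no p-value is given, and no member is named as called, in the contrasts of DE(b) with 24 h. Only the counts of members passing in the mean over day 1 treatments are printed, and nothing is read from them.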

Additional observations from a re-analysis of the deposited data

Results flagged for a closer look

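In 11 cases a day 1 step went in opposite directions in different sets, with every library of one condition above or below those of the other. The share of all genes with such cases is not given here, and nothing is read from the number. The difference was tested and not called in 4 of them, HOXB2 between PM and LM and HOXB3, HOXB4 and HOXB5 between 24 h and LM. The other 7 follow. The difference was not tested for HOXB1, or for HOXB13 between 24 h and DE(b). For LM against DE(b) a test was fitted and then left out after its values were seen, because the DE(b) libraries chose the members, and no test is reported. Values are log2 ratios of mean CPM.

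HOXB1 was higher in MPS than in APS at 24 h, by 2.92, and lower in LM, at -1.10.

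Between PPS and MPS, HOXB2 had 1.07 in DE(b) and -0.69 in LM, and HOXB3 had 0.53 in DE(b) and -0.55 in LM. HOXB4 had 0.56 in DE(b) and -1.24 in LM. HOXB5 had 2.09 in DE(b) and -0.23 in LM.

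HOXB13 went the other way, at -1.40 in DE(b), 0.59 at 24 h and 0.51 in LM. Its PPS-DE(b) libraries stood at 1.01 and 0.182 CPM. The DE(b) values belong to the conditions the members were chosen on.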

How the results depend on the processing

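The 97 member calls, which include those of the DE(b) contrasts not named above, kept their direction wherever an alternative gave a value. RLE scaling, no filter, DESeq2 and the replicate block lost 0 of them, and fits to only the conditions compared kept 92, lost 3 and filtered out HOXB13 in DE(a)-24h and HOXB4 in APS-24h, each against control, while leaving out 1 library kept a call 731 times and ended it 41 times.

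Numbers of members called outside the DE(b) contrasts moved as follows. With no filter there were 2 in DE(a)-24h against control, 7 in APS-24h against DE(a)-24h and 8 in PPS-24h against MPS-24h. There were 5 in the contrast of DE(a)-PM with APS-PM, and 5 in APS-LM and 3 in PPS-LM against MPS-LM. The step tests had 5 and 3 and the interaction had 9. The cause was not tested. DESeq2 gave 2 in DE(a)-24h against control, 5 in APS-24h against DE(a)-24h, 1 in DE(a)-PM, 1 in the LM minus 24 h step and 2 in the interaction. Fits to only the conditions compared gave 0 in DE(a)-24h against control and MPS-PM against APS-PM. They gave 1 in PPS-LM against MPS-LM and 1 in the LM minus 24 h step. With a pseudocount of 0.1, 18 of 30 genes named as most alike remained.

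The replicate block gave 2 in APS-LM against MPS-LM, HOXB8 and HOXB9, and changed no other count by over 1.5 times. Correlations of the deviations of same-numbered replicates ran from -0.0904 to 0.404 with a median of 0.0879. They were over 0.1 in 63 of 136 pairs, and the numbers were taken as pairing samples only if all were.

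Without 1 library the number called was 0 in DE(a)-24h against control, 0 to 1 in APS-24h against DE(a)-24h and in PPS-24h against MPS-24h, 0 to 5 for DE(a)-PM, 0 for MPS-PM and 1 to 3 for PPS-PM, each against APS-PM, 0 to 1 in APS-LM against MPS-LM and 0 to 4 in the interaction. Depth limits genes near 3 counts.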
